A study of Mus musculus with 335 samples.

Results

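The nuclear genes of oxidative phosphorylation were followed in mouse mammary tumours, their metastases, cultured tumour lines and normal organs. The members were every gene of the deposited expression table whose symbol starts with Nduf, Uqcr, Cox4, Cox5, Cox6, Cox7, Cox8 or Atp5, together with Sdha, Sdhb, Sdhc, Sdhd and Cycs, without pseudogene entries. This rule took 90 of the 20188 genes in the table and used no measured value. It took in 36 genes of complex I, 4 of complex II, 8 of complex III, cytochrome c, 11 of complex IV and 15 of the ATP synthase, which are called the 75 core subunit genes here. The other members were 8 tissue-restricted isoform genes and 7 assembly or accessory factors. Ndufa4 was counted with complex IV, where its protein is now placed. The 13 subunits encoded by mitochondrial DNA have no entry in the table, and were not analysed here.

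Complexes I to IV pass electrons from NADH and succinate to oxygen and pump protons across the inner mitochondrial membrane, and the ATP synthase uses the return flow of protons to make ATP. Cytochrome c, the product of Cycs, carries electrons from complex III to complex IV. Most subunits are made from nuclear genes that are active in every tissue, whereas a few complex IV subunits have isoforms that are known from lung, striated muscle, brown fat or testis. The nuclear respiratory factors, the ETS factor GABP and YY1 are known regulators of the nuclear subunit genes, and MYC is known to raise genes of mitochondrial biogenesis.

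RNA was sequenced from untreated snap-frozen tissue or cultured cells in 335 libraries, which gave 281 profiles of single animals or cultures in 61 groups once the libraries of 1 tissue of an animal were averaged. The transgenic models carried an oncogene behind the MMTV promoter, which acts mainly in mammary epithelium. They were PyMT on the strains FVB, BL6, BL10, CAST and MOLF, cMYC on FVB (called Myc tumours here) and Neu on FVB, to which the labels add C3Tag tumours with SV40T. Titles give the BL6 animals as BL6 or BL6N and the BL10 animals as BL10 or BL10J, and each pair was pooled here. The allografts were tumours grown from cell lines. 4T1, 4T07, 67NR, D2A1, EMT6, F311 and TSAE1 grew in BALB mice and have the driver given as unknown, E0771 grew in BL6 and R3T in 129S1J. The lines grown in FVB were HRM1 (driver Pik3ca), 6DT1 (cMyc), Mvt1 (cMYC / VEGF) and Met1 (PyMT), and M6 (SV40T) grew in mice given as REAR after orthotopic and as FVB after intracardiac injection. Lines were placed in the mammary gland (orthotopic), or injected into the tail vein or the heart, 1 Met1 group came from tumours that were resected, and 7 lines were also sampled in tissue culture. Normal tissue was healthy lung and liver of FVB mice without a transgene, and lung, liver or spleen beside tumour. The labels used here give no ages, and the tumour cells of an allograft descend from 1 line, beside cells of the host. Primary tumours and metastases were collected in pairs, and the comparison of metastases with their tumours across models was the stated purpose.

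The read totals recovered from the deposited values ran from 8106344 to 54906212 per library with a median of 27175852, so that the core genes rest on many reads in every library. Healthy lung carried all 13 lung epithelium markers, with a summed level of 54921 to 90517 RPKM, and healthy liver all 10 hepatocyte markers. 67NR tumours and cells carried 0 of 8 luminal epithelium markers at 1 RPKM or more, while the Myc tumours and all 5 PyMT strains carried 8 of 8. In the 10 paired models lung metastasis libraries carried lung transcripts: the share estimated from the lung markers averaged 6.92% (MOLF) to 20.5% (6DT1) of a library and ran from 1.499% to the set limit of 95% in FVB, with 1 BL6 metastasis at 0%. In the highest FVB metastasis the lung markers summed to 78595.5 RPKM, inside the range of healthy lung, and it stayed in the tests. BL6 primary tumours also carried lung transcripts, with Sftpc, which codes for surfactant protein C, at a mean of 108.5 RPKM and the 13 markers summing to 87.5 to 987 RPKM. The 1 profile labelled M6 lung metastasis after intracardiac injection went against its label, with Sftpc at 0.0218 RPKM and hepatocyte markers summing to 6682 RPKM, and it entered no test. The 1 Met1 lung metastasis after tail vein injection had lung markers summing to 93335.5 RPKM, above the range of healthy lung, and also entered no test. In bulk tissue, fewer cells of a type and less RNA per cell cannot be told apart. Many members have processed pseudogene copies elsewhere in the genome, and reads shared with such copies make single levels uncertain.

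Levels are given as RPKM, the reads of a gene divided by its length and by the library's total of reads, which puts genes of different length on 1 scale. Comparisons between organs depended on how libraries were scaled, as given with them. Over the 61 groups the core genes had mean levels from 20.4 to 328 RPKM, and 81 of the 90 members reached 1 RPKM in every group. Within complex I the highest mean was that of Ndufb9 with 119.8 RPKM, and the lowest that of Ndufs1, the largest iron-sulphur subunit, with 20.4 RPKM. In complex II the membrane anchor gene Sdhd had 82.5 RPKM and the flavoprotein gene Sdha 44.1 RPKM. Complex III ran from the core protein gene Uqcrc1 with 46.4 RPKM to the hinge protein gene Uqcrh with 263 RPKM. Complex IV genes were the most abundant as a class, from Cox5a with 104 RPKM to Cox4i1 with 321 RPKM. In the ATP synthase, Atp5b, the catalytic beta subunit gene, had 328 RPKM, and Atp5g1, 1 of 3 genes for the same membrane ring subunit, had 97.7 RPKM. The accessory factors spanned 3.44 RPKM for Atp5s to 142 RPKM for Cox7a2l, which joins complexes III and IV into supercomplexes. Cycs stood at 54.5 RPKM, and its group means ran from 19.0 RPKM in the liver beside 6DT1 tumour to 132 RPKM in Myc tumours.

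Most core genes went up and down together across the groups. The Pearson correlation of a gene's group mean with the median of the other core genes, on the log2 scale over 61 groups, was above 0.5 for 59 of the 75 genes and above 0.8 for 23, with a median of 0.74. These are descriptions over groups that share lines, strains and animals. Ndufb5 of complex I followed the others most closely (r = 0.92). The genes that followed least were those of complex II and the catalytic ATP synthase subunit: Sdhc had r = -0.04, Sdhd 0.16, Sdha 0.18 and Atp5b 0.19. Of the 75 core genes 49 are shorter than 1500 bases, and other short genes moved with them. The median of 839 other expressed genes under 1500 bases correlated with the core median at r = 0.62 (rho = 0.71) over the 61 groups, and the median of the longer genes at r = 0.18. The part of transcript length in the results below was not tested, and the share of all genes under 1500 bases (short genes) that passed is given beside most counts.

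Promoter windows of the members were searched for motifs, which the choice of genes did not use. Of the 90 members, 75 matched a promoter window in RefSeq (build GRCm38.p6), taken from 250 bases before to 50 bases after a transcription start, and these are not the 75 core genes. Motifs were searched on both strands. The palindrome of GCGCA followed by its reverse complement TGCGC, bound by nuclear respiratory factor 1 (NRF1), stood in 8% of the 75 members' windows (6 genes) and in 1.07% of 27025 genes, and the looser form GCGCA, any base and GCGC, which includes it, in 24% of members (18 genes) and 5.19% of genes. The ETS motif CCGGAAG stood in 22.7% of members (17 genes) against 9.93% of genes, and the YY1 motif AAGATGGC in 14.7% (11 genes) against 3.19%. The E-box CACGTG, which MYC and other factors bind, stood in 9.33% of members (7 genes) against 8.09% of genes, and CCAAT in 46.7% (35 genes) against 41.1%. The letters TATAAA, those of the TATA box, stood in 9.33% of members (7 genes) against 15.7% of genes. They were counted at any position of the window, so a match need not be a TATA box. Of the restricted isoform genes, 4 matched: 2 of them had TATAAA and 0 had the NRF1, ETS or YY1 letters. A match describes the letters only, members had 1.08 windows each on average against 1.22 for all genes, and no test was made of these shares.

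The windows below are printed 5′ to 3′ on the strand of the gene, with the motif in capitals. The first 5 hold the full NRF1 palindrome: Cox6a1 at chr5:115349081-115349150 and Atp5k at chr5:108434410-108434479 (both minus strand), the complex I assembly factor gene Ndufaf4 at chr4:24897940-24898009 and Ndufa11 at chr17:56717672-56717741 (both plus strand), and Atp5g2 at chr15:102671050-102671119 (minus strand). The next are genes that the results turn on and that hold the looser NRF1 form or the ETS motif: Atp5h at chr11:115420021-115420090, Ndufa5 at chr6:24527677-24527746, Uqcr11 at chr10:80406851-80406917 and Cox6b1 at chr7:30626115-30626172, all on the minus strand, where Cox6b1 has the ETS letters on the opposite strand. The last is Cox7b2 at chr5:71548391-71548455 (minus strand), the isoform gene that was found in 1 tumour line, with TATAAA on the opposite strand. Its printed stretch lies 250 to 186 bases before the transcription start.
Cox6a1: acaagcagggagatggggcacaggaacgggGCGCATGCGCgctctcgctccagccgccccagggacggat
Atp5k: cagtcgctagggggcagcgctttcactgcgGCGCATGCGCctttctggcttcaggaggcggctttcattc
Ndufaf4: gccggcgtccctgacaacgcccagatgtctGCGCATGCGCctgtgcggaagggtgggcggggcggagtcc
Ndufa11: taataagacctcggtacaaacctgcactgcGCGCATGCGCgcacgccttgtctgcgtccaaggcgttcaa
Atp5g2: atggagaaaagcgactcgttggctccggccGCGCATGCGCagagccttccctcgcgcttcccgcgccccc
Atp5h: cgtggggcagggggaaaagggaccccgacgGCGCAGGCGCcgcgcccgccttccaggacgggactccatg
Ndufa5: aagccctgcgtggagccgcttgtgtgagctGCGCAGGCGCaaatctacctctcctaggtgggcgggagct
Uqcr11: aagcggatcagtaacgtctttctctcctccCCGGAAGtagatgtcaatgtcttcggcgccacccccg
Cox6b1: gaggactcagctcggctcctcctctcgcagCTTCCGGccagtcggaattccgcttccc
Cox7b2: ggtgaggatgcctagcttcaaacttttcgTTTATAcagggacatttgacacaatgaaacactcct

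To order the groups, the level of the core genes was summarised per animal as the median over the 75 genes of log2(RPKM + 1) minus the gene's mean over the groups. Myc tumours ranked first, at 0.80 ± 0.14 (SD, 6 animals), with single animals from 0.61 to 0.97. MOLF lung metastases (0.72), Met1 liver metastases (0.71, 2 animals at -0.05 and 1.47) and MOLF tumours (0.61) followed, then 1 M6 brain metastasis (0.53), CAST lung metastases (0.44) and CAST tumours (0.42). The Met1 liver metastases carried liver transcripts, with hepatocyte markers summing to 18262 to 37072 RPKM beside 19346 to 41365 RPKM in healthy liver, and their part in that rank was not tested. The FVB PyMT tumours lay in the middle of the order, at 0.08 ± 0.23 (SD, 14 animals), with animals from -0.36 to 0.42. These neighbours were not separated by their spread: the animals of MOLF tumours ran from 0.18 to 1.10, across those of the CAST and Myc tumours. The lower end included the 7 cultured lines (from -0.29 in 67NR to -0.60 in 4T1), the healthy lung (-0.49) and, among tumours, 4T1 (-0.31), 4T07 (-0.40) and E0771 (-0.40). Every animal with a Myc tumour lay above all animals of the healthy lung, of 4T1 tumours and of 4T07 tumours, and above all 14 FVB PyMT tumours.

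**Figure D1:**
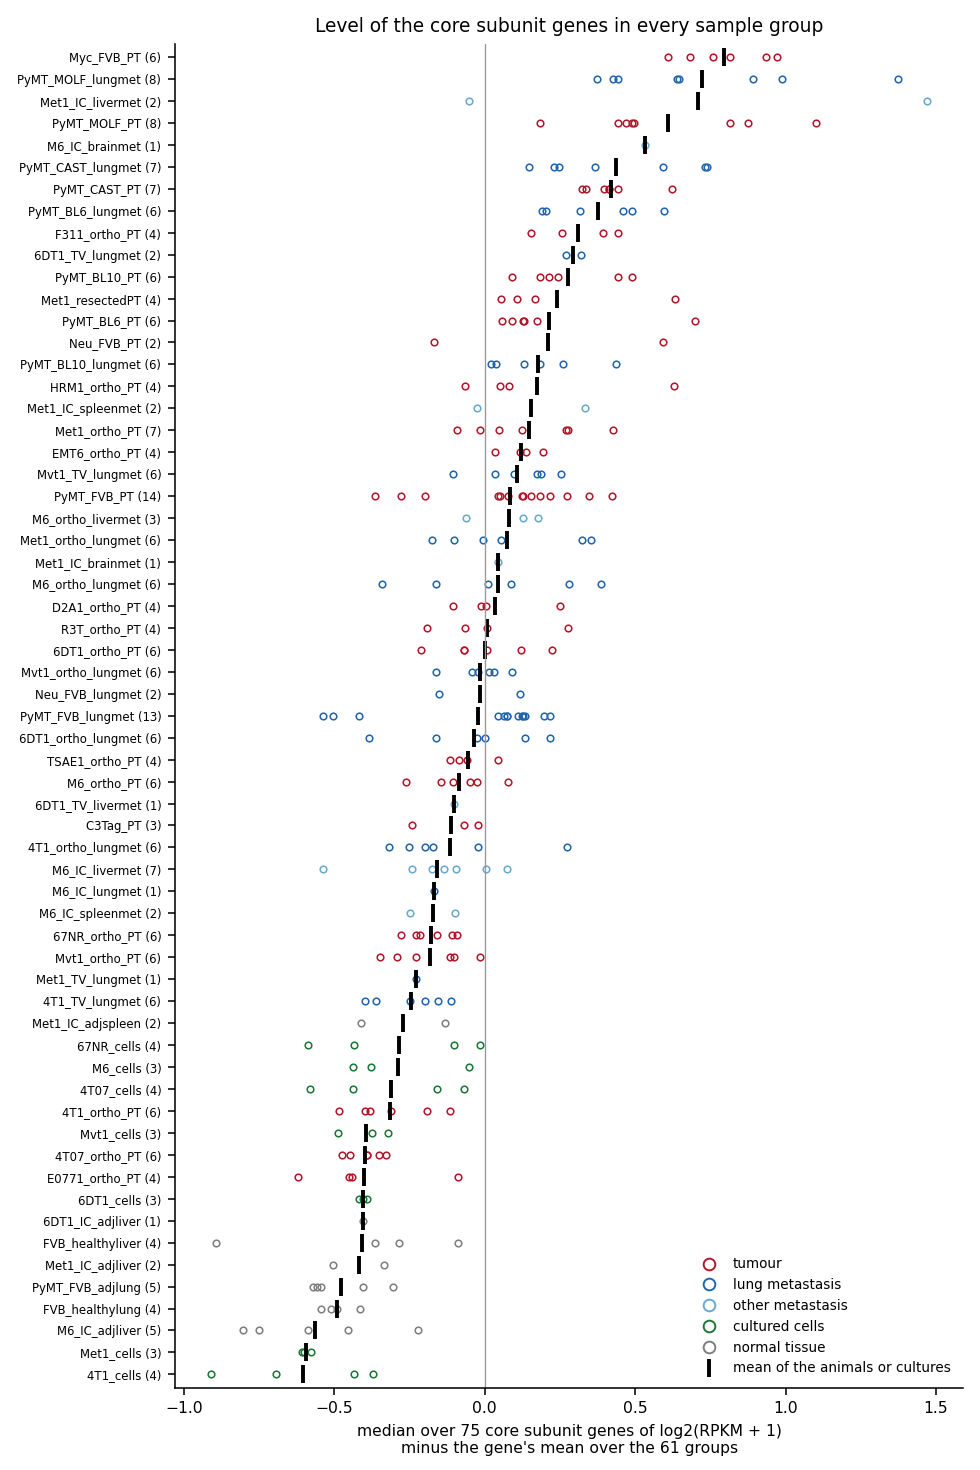
Level of the 75 core subunit genes in the 61 groups, as the median over genes of log2(RPKM + 1) minus each gene's mean over groups. Points are animals or cultures, coloured by kind of sample, and vertical ticks are group means, with Myc tumours at 0.80 at the top and 4T1 cells at -0.60 at the bottom.

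The Myc tumours and the FVB PyMT tumours share the strain and the promoter of the transgene and differ in the oncogene. Differences are given on the scale of log2(RPKM + 1), which understates the change of genes with low levels, with the standard error after the sign ±, and a gene was called where its p-value, adjusted over all genes tested, was under 0.05. Subunit genes of every complex were higher in Myc tumours: of 86 members tested, 69 were higher and 1 was lower. Of all 11521 genes tested, 20.8% were higher and 41.1% lower, and the members' median difference of 0.67 stood beside one of -0.21 for all genes. Among all genes under 1500 bases, 52% were higher, and their median difference was 0.52. The transgene's own gene, Myc, averaged 560 RPKM against 20.2 RPKM.

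Cycs showed the largest difference of the members. Its level was 88.6 to 224 RPKM (median 109) in the 6 Myc tumours and 17.6 to 82.0 RPKM (median 47.8) in the 14 PyMT tumours. Every Myc tumour was above all PyMT tumours (log2 difference 1.44 ± 0.27 SE, adjusted p = 9.41e-05). Of the 8 complex III genes 5 were higher, led by Uqcr11 and Uqcr10, which code for the smallest subunits. Uqcr11 had 405 to 560.05 RPKM (median 489.6) in Myc and 102 to 239.6 RPKM (median 189) in PyMT tumours, without overlap (log2 difference 1.41 ± 0.14 SE, adjusted p = 7.22e-08). Uqcr10 had 254 to 467 RPKM (median 352) against 97.0 to 178 RPKM (median 145), also without overlap (log2 difference 1.34 ± 0.15 SE, adjusted p = 2.61e-07). The other 3 genes, Uqcrc1, Uqcrc2 and Uqcrfs1, which code for the core proteins and the Rieske iron-sulphur protein, did not pass the test.

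Complex I had 34 of 36 genes higher, with a median difference of 0.67. Ndufa5, an accessory subunit gene of the matrix arm, led them with 119 to 149.8 RPKM (median 129) in Myc and 31.0 to 74.0 RPKM (median 52.5) in PyMT tumours (log2 difference 1.32 ± 0.15 SE, adjusted p = 2.85e-07). Again the groups did not overlap. Ndufb9 and Ndufv3 were the 2 complex I genes that did not pass. All 11 complex IV genes were higher, from Cox8a (0.32) to Cox6c, which had 313 to 832 RPKM (median 516) against 128 to 419 RPKM (median 208) (log2 difference 1.31 ± 0.21 SE, adjusted p = 1.54e-05). The Cox6c groups overlapped only where the lowest Myc tumours met the highest PyMT tumours.

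Of the 15 ATP synthase genes 11 were higher, with a median difference of 0.56. Atp5l, for the membrane subunit g, had 426 to 674 RPKM (median 591) in Myc and 179 to 339 RPKM (median 239.6) in PyMT tumours (log2 difference 1.22 ± 0.13 SE, adjusted p = 1.07e-07), without overlap. The catalytic subunit genes did not pass: Atp5b had 388 to 571 RPKM (median 476) against 229 to 529 RPKM (median 368), with overlap, and its difference was 0.32 ± 0.15 SE, adjusted p = 0.0663. Atp5a1, Atp5d and Atp5h did not pass either. Complex II was split within itself. The iron-sulphur subunit gene Sdhb had 66.0 to 115 RPKM (median 90.1) against 34.9 to 53.9 RPKM (median 46.9), without overlap (log2 difference 0.97 ± 0.13 SE, adjusted p = 1.74e-06), and Sdhd had 125 to 173 RPKM (median 146) against 62.8 to 115 RPKM (median 90.0), without overlap (0.73 ± 0.11 SE, adjusted p = 1.43e-05). For the flavoprotein gene Sdha the levels were 46.2 to 64.7 RPKM (median 52.8) and 43.0 to 64.5 RPKM (median 53.8), and for Sdhc 33.3 to 50.6 RPKM (median 44.5) and 37.7 to 74.0 RPKM (median 46.1). Both overlapped widely, with differences of 0.05 ± 0.11 (adjusted p = 0.704) and -0.10 ± 0.12 (adjusted p = 0.4934).

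The assembly factors of complex I also differed among themselves. Ndufaf4 had 11.4 to 22.4 RPKM (median 14.1) against 3.55 to 9.72 RPKM (median 6.10) and was higher without overlap (1.25 ± 0.16 SE, adjusted p = 1.59e-06). Ndufaf2 had 23.0 to 29.1 RPKM (median 26.7) against 5.97 to 15.1 RPKM (median 10.6), also without overlap (1.29 ± 0.16 SE, adjusted p = 9.18e-07). Ndufaf3 was the 1 member that was lower, with 5.18 to 8.63 RPKM (median 6.63) against 7.00 to 14.6 RPKM (median 10.1) and some overlap (-0.50 ± 0.13 SE, adjusted p = 0.00252).

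**Figure D2:**
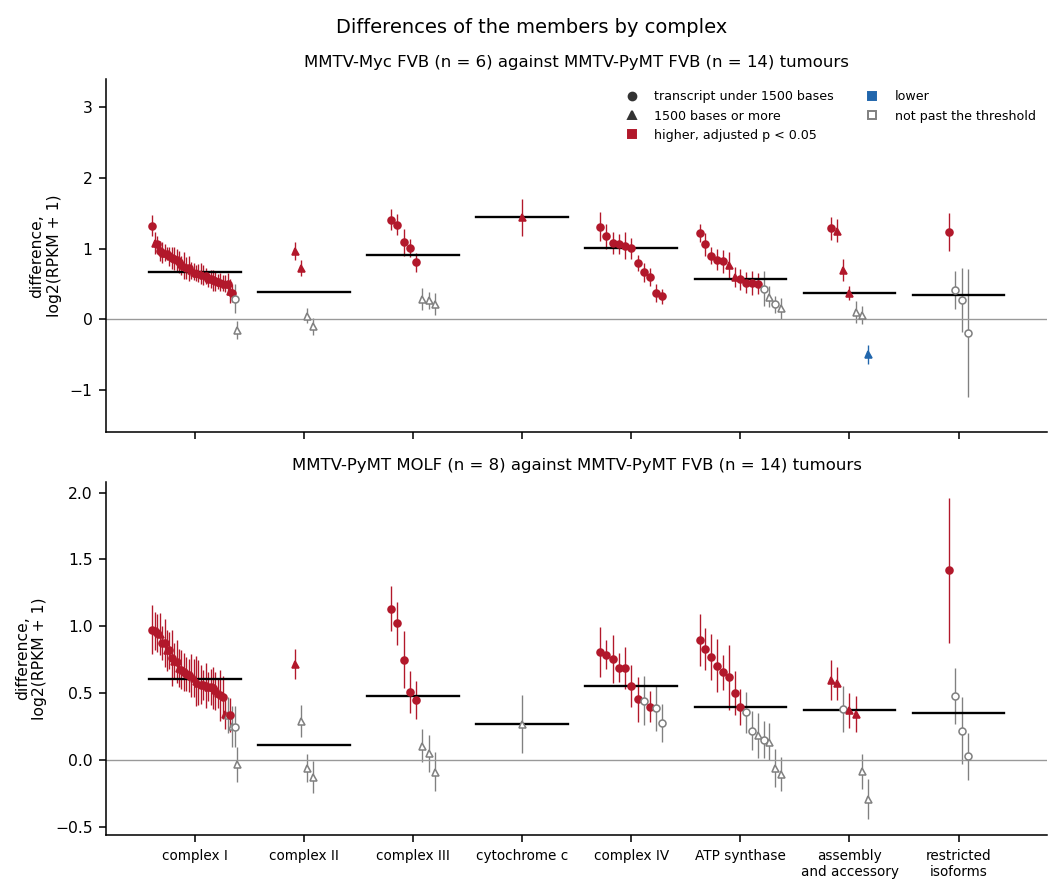
Differences of the members by complex, on the log2(RPKM + 1) scale, of Myc tumours (upper panel) and MOLF PyMT tumours (lower panel) from FVB PyMT tumours, with 1 point per gene, its SE as a bar and the median of each complex as a line. Red genes were higher, blue lower and open grey not past the threshold, and triangles are transcripts of 1500 bases or more. In the Myc comparison complex I, III and IV genes lie above 0 with few exceptions, and complex II genes are spread from -0.10 to 0.97.

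Other mitochondrial and metabolic genes were read from lists beside the members. In Myc tumours the mitochondrial ribosomal protein genes were 66 higher and 0 lower of 75 tested, and the cytosolic ribosomal protein genes 81 higher and 1 lower of 85. Assembly factors outside the members were 12 higher and 3 lower of 22, with the copper chaperone gene Cox17 at 1.30 and the ATP synthase inhibitor gene Atpif1 at 0.88. The tricarboxylic acid (TCA) cycle genes, whose products feed NADH and succinate to the chain, were 12 higher and 2 lower of 18, among them Suclg1 (0.80) and Mdh2 (0.82). Glycolysis genes were 2 higher and 4 lower of 17, with Hk1 at -1.68 and Aldoc at -1.85, and fatty acid oxidation genes 1 higher and 1 lower of 13. Of 7 macrophage markers 4 were higher and of 8 proliferation markers 3, and their part in the members' differences was not tested. Myc tumour libraries carry 1 series of names and PyMT tumours several: with the 5 PyMT tumours of the same name series, 55 members were higher and 1 lower. With each library rescaled to the median ratio over genes, 79 were higher and 1 lower. Here and below, counts under such other settings are given without the share of all genes under that setting.

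Among PyMT tumours of 5 strains the core genes were highest on MOLF, and the 4 comparisons below share the 14 FVB tumours. Reads of all strains were aligned to the same build, mm9, and the part of sequence differences between strains in the levels was not tested. On MOLF, a strain derived from wild Mus musculus molossinus, 59 of 86 members were higher than on FVB and 0 were lower. Of 11341 genes tested, 12.1% were higher and 24.1% lower, and of those under 1500 bases 41.4% were higher. The members' median difference was 0.55 beside -0.09 for all genes and 0.42 for short genes. On CAST, derived from wild Mus musculus castaneus, 31 of 86 were higher and 0 lower, beside 7.43% and 5.67% of 11458 genes and 21.8% higher among short genes. On BL10, 20 were higher and 1 lower beside 5.48% and 3.88% of 11489 genes, with 16.4% of short genes higher. On BL6 5 were higher and 1 lower beside 2.79% and 3.79% of 11465 genes, with 5.98% of short genes higher.

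By complex, MOLF tumours had 32 of 36 complex I genes higher, 5 of 8 of complex III, 8 of 11 of complex IV, 8 of 15 of the ATP synthase and 1 of 4 of complex II. The complex III subunit gene Uqcrq had 135 to 349.8 RPKM (median 249.9) in 8 MOLF tumours and 75.1 to 178 RPKM (median 96.9) in FVB tumours (log2 difference 1.13 ± 0.17 SE, adjusted p = 4.97e-05). Its groups overlapped at the lower end of MOLF. Uqcr10 had 190.00 to 539 RPKM (median 273) and every MOLF tumour was above all FVB tumours (1.02 ± 0.16 SE, adjusted p = 8.94e-05). In complex I, Ndufc2 had 117 to 357 RPKM (median 164) against 56.4 to 125 RPKM (median 92.6), with overlap (0.97 ± 0.18 SE, adjusted p = 0.000394), and Ndufb10 had 67.3 to 166 RPKM (median 87.5) against 36.5 to 69.4 RPKM (median 47.1) (0.96 ± 0.14 SE, adjusted p = 5.3e-05). Sdhb was the complex II gene that was higher, with 59.96 to 96.1 RPKM (median 70.3) and no overlap (0.72 ± 0.11 SE, adjusted p = 8.51e-05). Sdha (-0.06), Sdhd (-0.13), Sdhc (0.29) and Cycs (0.27, adjusted p = 0.348) did not pass.

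Uqcr10 was called on 3 of the strains. Beside the MOLF values above, its level was 225 to 359.9 RPKM (median 258) in 7 CAST tumours, without overlap with FVB (1.00 ± 0.13 SE, adjusted p = 3.63e-05). In 6 BL10 tumours it was 169.8 to 339 RPKM (median 245), with a small overlap (0.81 ± 0.15 SE, adjusted p = 0.00226). In 6 BL6 tumours it was 136 to 285 RPKM (median 191) and the difference did not pass (0.45 ± 0.16 SE, adjusted p = 0.085). CAST tumours also had more Uqcrq (0.74 ± 0.14 SE, adjusted p = 0.00185), Ndufb4 (0.72 ± 0.14 SE, adjusted p = 0.0024) and Cox6c (0.70 ± 0.18 SE, adjusted p = 0.0129), and of Sdha to Sdhd only Sdhb was called (0.35). The complex I assembly factor gene Ndufaf1 had 7.19 to 12.8 RPKM (median 10.0) in CAST, 8.01 to 11.2 RPKM (median 9.13) in BL6 and 4.33 to 7.03 RPKM (median 5.64) in FVB tumours. Neither CAST nor BL6 overlapped FVB (0.70 ± 0.11 SE, adjusted p = 0.000211 for CAST and 0.62 ± 0.10 SE, adjusted p = 0.00112 for BL6).

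In BL10 tumours 11 of 36 complex I genes were higher and 1 lower, and 3 of 11 of complex IV, 2 of 8 of complex III, 1 of 4 of complex II and 1 of 15 of the ATP synthase were higher. Ndufc2 had 79.7 to 282 RPKM (median 212) (0.96 ± 0.20 SE, adjusted p = 0.00433) and Ndufb4 75.5 to 177 RPKM (median 141) against 48.1 to 104 RPKM (median 74.3) (0.85 ± 0.17 SE, adjusted p = 0.0038), both overlapping FVB. Cox7c was higher by 0.79 ± 0.18 SE, adjusted p = 0.00809. Sdhc had 56.98 to 78.7 RPKM (median 70.3) on BL10 (0.58 ± 0.12 SE, adjusted p = 0.00347), and Ndufv1, which codes for the NADH-binding subunit, was the 1 member lower (-0.43 ± 0.13 SE, adjusted p = 0.0406). On BL6, Ndufaf2 (0.70 ± 0.19 SE, adjusted p = 0.0293), Ndufs5 (0.65 ± 0.13 SE, adjusted p = 0.00473), Uqcrb (0.56) and Ndufb10 (0.51) were the others higher. Ndufs5 had 48.9 to 87.4 RPKM (median 52.4) and did not overlap the 27.3 to 45.8 RPKM of FVB. Uqcrc1 was lower, with 32.3 to 45.1 RPKM (median 37.3) against 39.8 to 75.2 RPKM (median 51.9) (-0.51 ± 0.14 SE, adjusted p = 0.0291).

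Ribosomal protein genes moved with the strains as well. On MOLF the mitochondrial ribosomal protein genes were 35 higher and 0 lower of 75 and the cytosolic ones 41 higher and 2 lower of 84, while TCA cycle genes were 2 higher and 2 lower of 18 and glycolysis genes 1 higher and 3 lower of 17. On CAST the mitochondrial ones were 16 higher and 0 lower of 75, the cytosolic ones 23 higher and 2 lower of 84 and the TCA cycle genes 1 higher and 1 lower of 18. Neutrophil markers were higher on MOLF (4 of 5 tested), and the summed skeletal muscle markers ran from 8.64 to 5421 RPKM in MOLF against 11.8 to 117 RPKM in FVB tumours. Libraries carry several series of names, and within the KS series, which left 2 to 5 tumours of each strain against 8 of FVB, the members higher were 20 on BL6, 32 on BL10, 13 on CAST and 29 on MOLF, with 0 lower. These counts stand without the share of all genes within the series. The KS-named MOLF tumours include the 2 that are titled as lung metastases and were placed by their source entry. All KS-named BL6 tumours are titled BL6N and all KS-named BL10 tumours BL10J. Within these strains, name series and substrain title cannot be told apart. Of all genes 9.37% were called on BL10 and 6.59% on BL6, and leaving out each BL10 tumour in turn gave 9, 9, 12 and 13 members called for 4 of the 6 tumours in place of 21, and leaving out 1 BL6 tumour gave 2 in place of 6.

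Lung metastases were compared with the primary tumour of the same animal in 5 allograft and 5 PyMT models. The models did not share 1 direction: the members' median difference was 0.22 in Mvt1, 0.18 in 4T1 and -0.05 in 6DT1, the models in which members were called in number. Over all 10 models, with the same 88 members in each, these medians ran from -0.13 in Met1 to 0.25 in BL6. In Mvt1, 26 of 85 members were higher and 5 lower, beside 11.2% and 17.8% of 10940 genes and 14.9% higher among genes under 1500 bases. In 4T1, 9 of 85 were higher and 1 lower beside 7.36% and 4.75% of 11257 genes, with 12% and 2.78% of short genes, and 4 and 2 once libraries were rescaled. In 6DT1, 6 of 87 were higher and 7 lower beside 19.4% and 15% of 11121 genes, with 19.3% and 20% of short genes, and 4 and 8 once rescaled. Without the animal as a block the calls were 20 higher and 4 lower in Mvt1, 11 higher and 4 lower in 4T1 and 6 higher and 4 lower in 6DT1. In 4T1 the 10 members called became 1 without animal 1, 2 without animal 2 or 10, 3 without animal 9 and 4 without animal 12. In 6DT1 the 13 called became 32 without animal 0, 4 without animal 2 or 3, 5 without animal 5 and 7 without animal 4. In Mvt1 the count fell to 17 without animal 4 and to 18 without animal 6.

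Complex I genes made up 14 of the 26 genes higher in Mvt1 metastases. Ndufa3, an accessory subunit gene, had 54.6 to 74.9 RPKM (median 59.7) in 6 metastases and 31.8 to 44.7 RPKM (median 38.2) in the 6 tumours, without overlap (0.71 ± 0.09 SE, adjusted p = 0.00338). Ndufa9 had 34.8 to 43.9 RPKM (median 40.9) against 21.6 to 31.8 RPKM (median 24.5) (0.60 ± 0.08 SE, adjusted p = 0.00363). In complex IV, Cox6b1 had 258 to 310.5 RPKM (median 282) against 122 to 207 RPKM (median 191), again without overlap (0.65 ± 0.10 SE, adjusted p = 0.00495). Complex II genes moved apart in the same animals, since Sdha (0.27) and Sdhb (0.36) were higher while Sdhc was lower. Sdhc had 31.7 to 43.2 RPKM (median 35.9) in metastases and 43.8 to 79.2 RPKM (median 50.9) in tumours, with no metastasis above the lowest tumour (-0.54 ± 0.09 SE, adjusted p = 0.00527). Uqcrc1 was lower too, with 29.3 to 41.0 RPKM (median 29.8) against 44.5 to 53.2 RPKM (median 49.7) and no overlap (-0.59 ± 0.10 SE, adjusted p = 0.00661). Atp5d, for the delta subunit (-0.40 ± 0.08 SE, adjusted p = 0.0115), Ndufb8 (-0.25) and Ndufa4l2 (-0.66) were the others lower. Ndufa1 was higher by 0.62 ± 0.12 SE, adjusted p = 0.00996.

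In 4T1 metastases Ndufa1, an accessory subunit gene of complex I on the X chromosome, had 41.7 to 82.8 RPKM (median 48.3) against 24.1 to 34.0 RPKM (median 29.8) (0.85 ± 0.13 SE, adjusted p = 0.00729). Ndufaf2 (0.83 ± 0.19 SE, adjusted p = 0.028), Ndufa3 (0.61) and Ndufaf3 (0.58) were higher and Atp5d lower (-0.54 ± 0.13 SE, adjusted p = 0.0365). In 6DT1, Cox4i1 had 235 to 296 RPKM (median 248) in metastases and 313 to 352 RPKM (median 318) in tumours (-0.37 ± 0.08 SE, adjusted p = 0.00836). Ndufc2 (-0.40), Ndufa4 (-0.38) and Cox7a2l (-0.35) were also lower, and Ndufaf3 (0.50), Ndufb10 (0.32) and Ndufa11 (0.31) higher. In the 7 other models members were called in 1 only. By limma, 0 members were called in Met1, M6, FVB, BL6, BL10 and CAST. Of all genes tested, 0.263% were higher and 0.0544% lower in Met1, 3.65% were higher and 1.06% lower in M6, 0.849% were higher and 0.424% lower in FVB, 0.392% were higher and 0.259% lower in BL6, 0.973% were higher and 1.59% lower in BL10 and 1.31% and 3.2% in CAST. In both directions together this was 0.317% in Met1, 4.71% in M6, 1.27% in FVB, 0.651% in BL6, 2.56% in BL10 and 4.51% in CAST. At an unadjusted p under 0.05, members higher and lower were 1 and 4 in Met1, 9 and 1 in M6, 1 and 7 in FVB, 21 and 1 in BL6, 9 and 9 in BL10 and 6 and 4 in CAST. In MOLF the isoform genes Cox4i2 (1.11 ± 0.15 SE, adjusted p = 0.00245) and Cox6b2 (1.09 ± 0.19 SE, adjusted p = 0.0174) were higher, beside 0.616% of all genes, and 0 members lower beside 0.48%.

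Across the 10 models, with each model's mean paired difference as 1 value, 19 of 88 members were higher in metastases and 5 lower, beside 11.9% and 20.3% of 11890 genes and 18.4% higher among genes under 1500 bases. The sizes were small, with a median of 0.05 over the members, -0.04 over all genes and 0.02 over short genes. The members with the same sign in all 10 models were Cox4i2, Cox6b2, Cycs, Ndufa1, Ndufa8, Ndufaf2, Ndufaf4 and Ndufs5 on the higher side and Cox8b, Ndufaf1 and Uqcrfs1 on the lower side. The share of all genes with 1 sign in all 10 models was not counted, so this does not set these members apart. Ndufa1 differed by 0.04 to 0.85 between models (shared difference 0.41 ± 0.09 SE, adjusted p = 0.00504), and Cycs by 0.12 to 0.78 (0.38 ± 0.08 SE, adjusted p = 0.00414). Both were higher in every model, with the largest difference of Ndufa1 in 4T1 and of Cycs in BL10. Ndufs5 (0.02 to 0.54 over models, 0.24 ± 0.07 SE, adjusted p = 0.0131), Ndufa8 (0.03 to 0.45, 0.21 ± 0.06 SE, adjusted p = 0.0177), Ndufaf2 (0.01 to 0.83, 0.26 ± 0.09 SE, adjusted p = 0.0362) and Ndufaf4 (0.01 to 0.47, 0.17 ± 0.06 SE, adjusted p = 0.0324) were smaller. Uqcrfs1, the Rieske protein gene of complex III, had differences of -0.48 to -0.07 over models (-0.23 ± 0.05 SE, adjusted p = 0.00403), and Ndufaf1 of -0.23 to -0.01 (-0.12 ± 0.04 SE, adjusted p = 0.0324). Atp5d was lower in 9 of 10 models (-0.27 ± 0.07 SE, adjusted p = 0.00956) and Sdhc in 8 of 10 (-0.27 ± 0.07 SE, adjusted p = 0.00925).

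The 3 isoform genes Cox4i2, Cox6b2 and Cox6a2 were the called members with the largest shared differences upward, and each had a mean under 6 RPKM in metastases. Cox4i2 differed by 0.60 to 1.97 over models (1.18 ± 0.14 SE, adjusted p = 7.91e-05) and Cox6b2 by 0.50 to 1.54 (0.86 ± 0.11 SE, adjusted p = 0.000146). Cox6a2 was higher in 9 of 10 models on the log scale (0.63 ± 0.14 SE, adjusted p = 0.00429), although its mean RPKM was 1.65 in metastases and 2.48 in tumours. Cox8b was lower in all 10 (-0.76 ± 0.14 SE, adjusted p = 0.00171), from a mean of 4.45 to one of 1.204 RPKM. All 3 genes that were higher are also expressed in the healthy lung, as given below. The lung markers were higher in metastases (12 of 13), as were the endothelial (8 of 8) and neutrophil markers (8 of 8), and 7 of 8 fibroblast markers were lower. White fat markers were 0 higher and 5 lower of 6 tested, and skeletal muscle markers 0 higher and 5 lower of 7. The part of fat and muscle in the differences of Cox8b and Cox6a2 was not tested. With the healthy lung profile subtracted at the estimated share of each library, the difference of Cox4i2 was -0.16 (adjusted p = 0.513), and 30 members were higher and 4 lower. These values rest on 1 share per library, on which the lung markers differed. In 6DT1 metastases Lamp3 averaged 49.4 RPKM against 80.1 RPKM in healthy lung, and Scgb1a1 592 RPKM against 49065 RPKM. Without the Mvt1 model 14 members were called in place of 24. Members' differences were not shown to differ between allograft and transgenic models: 0 of 88 passed limma's test of that difference, 3 had an unadjusted p under 0.05, and 0.572% and 0.0757% of all genes passed. Of the other lists, glycolysis genes were 0 higher and 5 lower of 17, TCA cycle genes 2 higher and 1 lower of 18, mitochondrial ribosomal protein genes 9 higher and 3 lower of 75 and cytosolic ones 0 higher and 12 lower of 84.

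**Figure D3:**
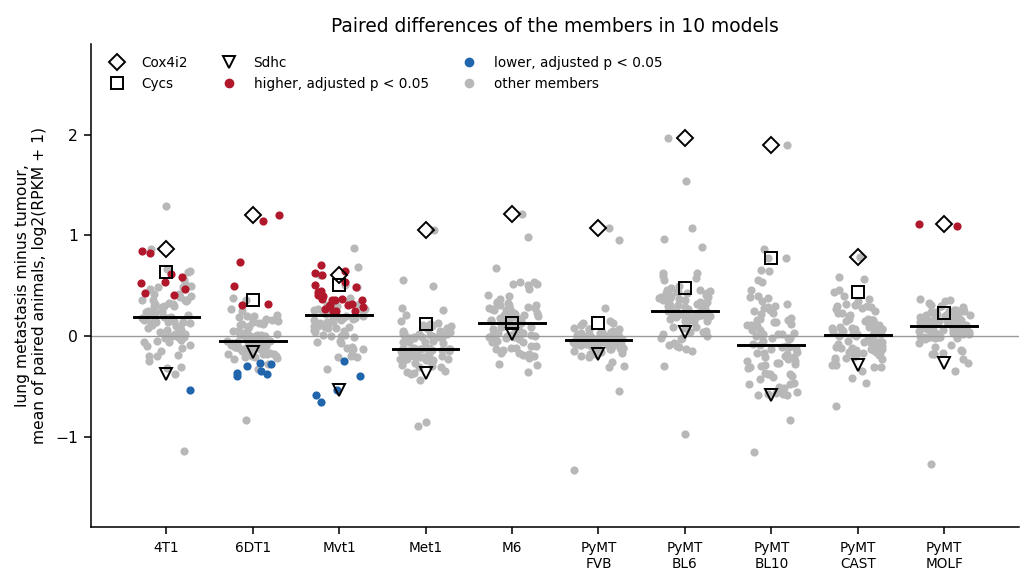
Lung metastasis minus primary tumour in each of 10 models, as the mean over paired animals of the log2(RPKM + 1) difference; points are members (red higher, blue lower, grey not past the threshold in that model), lines are medians, and open diamonds, squares and triangles mark Cox4i2, Cycs and Sdhc. Cox4i2 and Cycs lie above 0 in all 10 models, and Sdhc below 0 in 8.

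The 8 isoform genes were low in most groups and high in a few. Cox4i2, the lung isoform of complex IV subunit 4, which is known to rise in low oxygen, was highest in the healthy lung with 24.8, 24.9, 25.8 and 29.8 RPKM, or 13.4% of the summed level of Cox4i1 and Cox4i2. Lung beside FVB tumours had 14.8 to 30.2 RPKM, and the 14 FVB tumours 0.0848 to 1.16 RPKM (median 0.434), far below both. Among tumours, M6 stood out with 0.781 to 35.2 RPKM (median 7.28) in 6 orthotopic tumours and 4.04 to 38.5 RPKM (median 15.8) in their lung metastases. The M6 tumours spread widely and the highest lay above all healthy lungs, and 3 liver metastases of M6 had 5.12, 22.2 and 23.3 RPKM. M6 cells in culture had 0.705, 0.732 and 1.197 RPKM. Ndufa4l2, the hypoxia-induced relative of Ndufa4, was also higher in M6 tumours than in M6 cells: it had 1.06 to 46.9 RPKM (median 10.7) in M6 tumours and 0, 0.110 and 0.248 RPKM in M6 cells. The hypoxia markers summed to 228 to 426 RPKM in M6 tumours and 58.0 to 120.2 RPKM in M6 cells, and their part in the levels of both genes was not tested.

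The muscle and brown fat isoform genes were high in single animals. Cox8b, the heart, muscle and brown fat isoform of subunit 8, had 0, 0, 0.481, 0.495, 0.783 and 262 RPKM in the 6 Myc tumours and 0.269, 3.77, 19.4 and 304 RPKM in the 4 HRM1 tumours. In each group 1 tumour was far above the rest. The brown fat markers outside the members summed to 209 RPKM in that Myc tumour and 2.14 to 7.64 RPKM in the other 5, and to 227 RPKM in that HRM1 tumour and 0.990 to 15.6 RPKM in the other 3. Cox7a1, the muscle isoform of subunit 7a, followed in HRM1 with 1.17, 1.70, 6.30 and 74.2 RPKM and reached 92.3 RPKM in 1 Myc tumour. F311 tumours had 0.102, 1.71, 32.1 and 61.9 RPKM of Cox8b, where the brown fat marker sums were 3.08, 2.15, 4.57 and 13.5 RPKM in the same order. Skeletal muscle markers summed to 29.3 to 445 RPKM in F311, 12.4 to 567 RPKM in HRM1 and 5.95 to 53.3 RPKM in Myc tumours. Cox6a2, the muscle isoform of subunit 6a, ran from 0 to 141 RPKM (median 0.223) in MOLF tumours, and the tumour at the top had a skeletal muscle marker sum of 5421 RPKM, the next at 2.99 RPKM one of 307 RPKM. In lung beside tumour it had 4.67, 5.10, 5.91, 6.93 and 30.7 RPKM, where the highest lung had a muscle marker sum of 101.5 RPKM and the others 4.70 to 11.2 RPKM. The part of adjacent fat and muscle in these levels was not tested. Cox6a2 also split the 67NR cultures: the 2 named as isolations had 0.88 and 1.48 RPKM and the 2 with AS names 43.0 and 46.9 RPKM, while their muscle marker sums were 6.80 and 7.55 against 1.47 and 1.30 RPKM.

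Of the testis isoform genes, Cox7b2 was high in 67NR tumours and 67NR cells. Cox7b2 had 70.5 to 124 RPKM (median 83.5) in the 6 tumours, a mean of 45.3% of the summed level of Cox7b and Cox7b2, and 18.7, 19.7, 50.4 and 51.7 RPKM in the 4 cultures. Its promoter is the last of those printed above, without the NRF1, ETS or YY1 letters. The next highest group, Met1 brain metastasis, had 2.00 RPKM in 1 animal, and 4T1 tumours were listed at 0 in all 6 animals. None of 8 testis and germ cell markers reached a mean of 1 RPKM in 67NR tumours or cells. Cox6b2, the testis isoform of subunit 6b, was highest in the spleen beside Met1 tumour, with 104 and 128 RPKM in 2 animals, or 40.5% of the pair with Cox6b1. Lymphocyte markers summed to 324 and 369 RPKM there. Healthy lung had 12.9, 14.7, 15.7 and 16.5 RPKM of Cox6b2 and the FVB tumours 0.287 to 2.34 RPKM (median 0.944). Cox8c, a testis gene, stayed at or below 0.0483 RPKM in every group. For the ring subunit of the ATP synthase the 3 genes Atp5g1, Atp5g2 and Atp5g3 code for the same mature protein, and their shares differed by organ: 22.1%, 38.4% and 39.4% in FVB tumours, 14.5%, 43.2% and 42.3% in healthy lung and 20.8%, 18.5% and 60.7% in healthy liver.

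**Figure D4:**
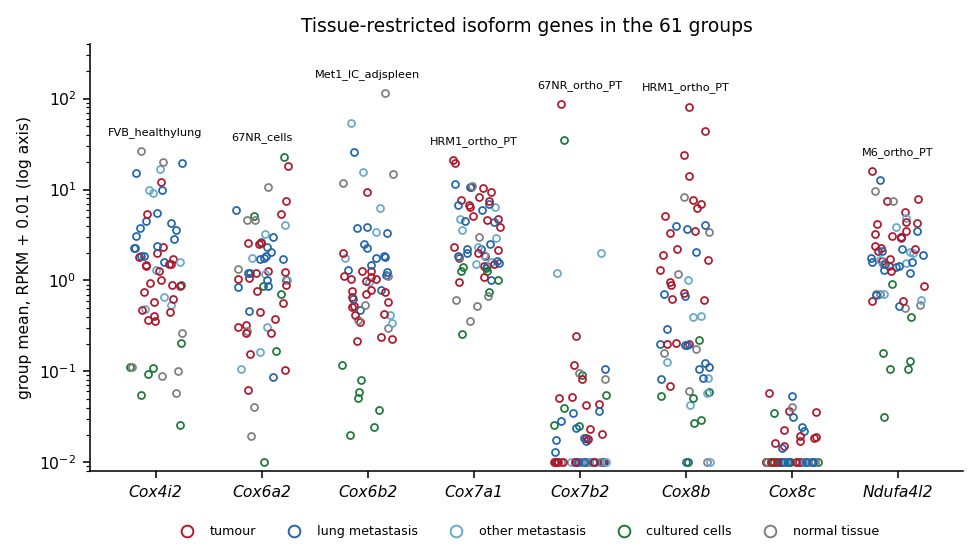
Group means of the tissue-restricted isoform genes in the 61 groups, as RPKM + 0.01 on a log axis, with 1 circle per group coloured by kind of sample and the highest group named. Cox7b2 reaches 86.8 RPKM in 67NR tumours, Cox6b2 is highest in spleen beside Met1 tumour and Cox4i2 in healthy lung, where its mean is 26.3 RPKM.

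Atp5h, which codes for subunit d of the stalk of the ATP synthase, varied most of the core genes, with an SD over the 61 groups of 0.78 on the log2 scale. Its level was 138 to 665 RPKM (median 209) in FVB PyMT tumours and 312 to 1074 RPKM (median 807) in 7 orthotopic tumours of Met1, a line with the same driver and strain. The groups overlapped, since the 2 lowest Met1 tumours lay inside the FVB range (1.65 ± 0.27 SE, adjusted p = 8.61e-05). Resected Met1 tumours had 822.6, 822.9, 857 and 1978 RPKM, Met1 lung metastases 712 to 912 RPKM, and Met1 cells in culture 277, 320.1 and 357 RPKM, inside the range of the FVB tumours. In BL6 tumours 4 animals had 171.1 to 249.7 RPKM and 2 had 606 and 978.5 RPKM. The neighbouring genes on chromosome 11 went the same way. Of the 10 nearest expressed genes on each side, by RefSeq order and chosen after the values of Atp5h had been seen, 20 of 20 had a higher mean in Met1 than in FVB tumours, and 17 of 20 had Met1 or resected Met1 as the highest of 23 tumour groups. Ict1, the nearest of them before Atp5h, had means of 70.6 and 31.7 RPKM, Sumo2 971 and 338 RPKM, and Rpl38 2227 and 982 RPKM. Of 86 members 11 were higher in Met1 than in FVB tumours and 7 lower, beside 12% and 18.8% of 11453 genes, with 12.7% and 13.3% of short genes, and 16 and 6 once libraries were rescaled. Ndufs5 (0.85 ± 0.13 SE, adjusted p = 6.23e-05), Uqcrh (0.68) and Ndufa1 (0.64) were higher, and Uqcrfs1 (-0.69 ± 0.15 SE, adjusted p = 0.00131), Sdhd (-0.47), Uqcrc2 (-0.43) and Ndufv1 (-0.37) lower.

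**Figure D5:**
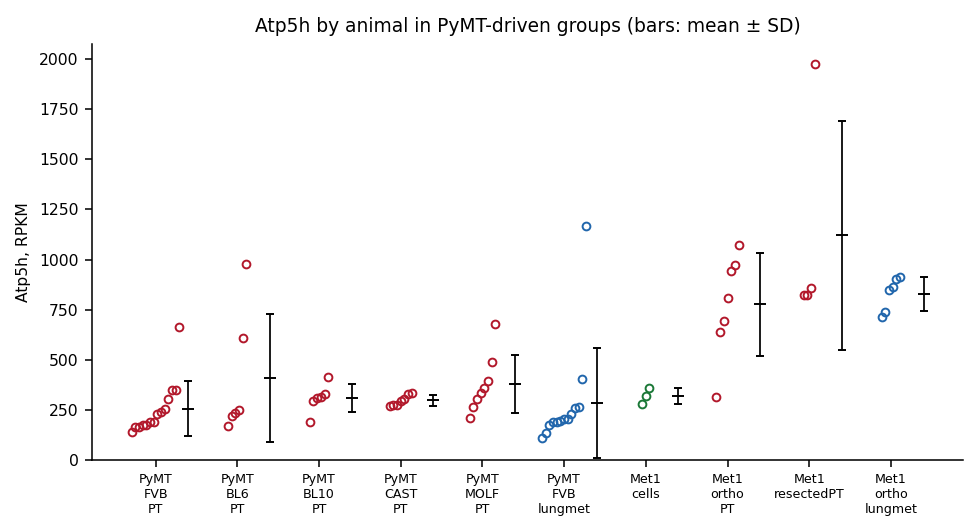
Atp5h by animal in the PyMT-driven groups, in RPKM; red points are tumours, blue lung metastases and green cultured cells, and bars are mean ± SD. Met1 orthotopic tumours reach 1074 RPKM and 1 resected Met1 tumour 1978 RPKM, while Met1 cells lie at 276.7 to 356.8 RPKM.

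Ndufb9, an accessory subunit gene of complex I, was highest in D2A1 tumours, with 269, 269, 285 and 376 RPKM in 4 animals. EMT6 tumours had 104, 111, 122 and 126 RPKM and TSAE1 tumours 59.6, 61.9, 65.5 and 68.3 RPKM, and neither overlapped D2A1. No test was made of these levels, since Ndufb9 was picked out for them.

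4T1, 4T07 and 67NR are sister lines from 1 mouse mammary tumour, and both comparisons below share the 6 67NR tumours. More members were lower than higher in both lines: 37 were lower and 20 higher of 86 in 4T1, beside 29.9% and 29.5% of 11223 genes, and 42 lower and 9 higher of 86 in 4T07, beside 35.3% and 29.5% of 11090 genes. Of short genes 30.2% were lower and 24.8% higher in 4T1, and 28.6% lower and 28.8% higher in 4T07. After rescaling the 4T07 counts were 32 lower and 12 higher. Complex I held calls both ways, with 10 higher and 17 lower of 36 in 4T1 and 4 higher and 19 lower of 36 in 4T07. Ndufs3, a core subunit gene of complex I, had 39.1 to 49.9 RPKM (median 42.4) in 4T1 and 21.7 to 34.8 RPKM (median 23.2) in 67NR tumours, without overlap (0.79 ± 0.12 SE, adjusted p = 5.59e-05). Ndufa1 had 24.1 to 34.0 RPKM (median 29.8) in 4T1 against 52.3 to 79.8 RPKM (median 59.5) in 67NR, also without overlap (-1.07 ± 0.12 SE, adjusted p = 5.14e-06). Cycs had 20.9 to 43.8 RPKM (median 33.7) in 4T1 and 44.9 to 80.1 RPKM (median 63.1) in 67NR tumours (-0.99 ± 0.18 SE, adjusted p = 0.000302). Ndufb9 (0.64), Atp5sl (0.62) and Ndufa4l2 (0.96) were among the higher members in 4T1, and Ndufaf4 (-1.10) among the lower.

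In 4T07, Ndufc2 had 76.1 to 99.3 RPKM (median 91.0) against 30.0 to 46.3 RPKM (median 37.7) in 67NR and was higher without overlap (1.24 ± 0.10 SE, adjusted p = 1.97e-07). Ndufa12 had 41.7 to 60.01 RPKM (median 47.6) against 94.1 to 124 RPKM (median 112) and was lower without overlap (-1.15 ± 0.10 SE, adjusted p = 2.93e-07). Ndufs4 (-1.11 ± 0.10 SE, adjusted p = 3.14e-07) and Ndufaf4 (-1.07) were lower, and Atp5sl (0.85), Ndufv3 (0.60) and Ndufb9 (0.53) higher. Cox7b2, at 0 in 4T1 and at 0 to 1.36 RPKM in 4T07, was called lower in both. Glycolysis genes were 10 higher and 2 lower of 17 in 4T1 and 14 higher and 1 lower of 17 in 4T07, and hypoxia markers 6 higher and 0 lower of 8 and 6 higher and 0 lower of 8. TCA cycle genes were 3 higher and 7 lower of 17 in 4T1 and 6 higher and 7 lower of 17 in 4T07. Proliferation markers were lower in 7 of 8 in 4T1 and in 6 of 8 in 4T07, and luminal markers were higher in each one tested. Macrophage markers were lower in 6 of 7 in 4T1 and 7 of 7 in 4T07, and neutrophil markers higher in 5 of 6 and 8 of 8. Endothelium markers were 1 higher and 0 lower of 8 in 4T1 and 0 higher and 6 lower of 7 in 4T07, fibroblast markers were higher in 5 of 8 and 2 of 8, and the part of all these markers in the members' differences was not tested.

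Cultured cells were compared with orthotopic tumours of the same 7 lines, each line as 1 value. Of 85 members 15 were lower in culture and 1 higher, beside 14.2% and 10.4% of 11330 genes and 27.5% lower among genes under 1500 bases. The members' median was -0.23, that of all genes 0.03 and that of short genes -0.21. Atp5b was the 1 gene higher, with a mean of 437 RPKM in cells and 320.5 RPKM in tumours and the same sign in all 7 lines (0.44 ± 0.12 SE, adjusted p = 0.023). The genes lower were 6 of complex I, 4 of complex IV, 1 of complex III, 3 isoform genes and Cox7a2l. Ndufa6 (-0.81 ± 0.17 SE, adjusted p = 0.0092) and Cox6c (-0.78 ± 0.19 SE, adjusted p = 0.0149) were lower in all 7 lines and Uqcrh in 6 of 7 (-0.999 ± 0.26 SE, adjusted p = 0.0217). Ndufa4l2 averaged 0.254 RPKM in cells and 5.38 RPKM in tumours (-1.86 ± 0.32 SE, adjusted p = 0.0029), and Cox4i2 differed by -1.23 ± 0.22 SE, adjusted p = 0.00326. The lines were not alike, since the members' median difference was -0.69 in Met1, between -0.35 and -0.10 in 6DT1, 4T1, Mvt1, M6 and 67NR, and 0.11 in 4T07. Markers of other cell types were lower in culture, with 8 of 8 for fibroblasts, 7 of 7 for macrophages and 6 of 7 for endothelium, as were 5 of 8 hypoxia markers, and their part in the members' differences was not tested. Leaving out single lines gave 8 to 18 members called (16 and 24.6% of all genes with every line), with 8 without M6, 9 without 4T1 and 10 without 67NR or Met1.

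Most members were lower in the healthy FVB lung than in FVB PyMT tumours. Of 88 members 54 were lower and 5 higher, beside 38.6% and 29.6% of 12707 genes, with 37% and 25.6% of short genes. The median was -0.45 for members, -0.14 for all genes and -0.24 for short genes. The largest differences downward were those of ATP synthase genes and Uqcrfs1. Atp5g1 had 35.1, 35.3, 35.9 and 36.8 RPKM in 4 lungs and 94.6 to 222 RPKM (median 141) in tumours (-1.996 ± 0.17 SE, adjusted p = 2.54e-09). Atp5b had 119, 140.4, 142 and 147 RPKM against 229 to 529 RPKM (median 368) (-1.44 ± 0.17 SE, adjusted p = 4.15e-07), and neither gene overlapped. Uqcrfs1 (-1.39 ± 0.15 SE, adjusted p = 7.12e-08) and Atp5a1 (-1.34 ± 0.16 SE, adjusted p = 4.46e-07) followed. The 5 higher members were the isoform genes Cox4i2 (4.24 ± 0.14 SE, adjusted p = 1.46e-15), Cox6b2 (3.04 ± 0.22 SE, adjusted p = 2.03e-10), Ndufa4l2 (2.33) and Cox6a2 (2.16) with Ndufaf3 (0.36). TCA cycle genes were 1 higher and 14 lower of 18, glycolysis genes 0 higher and 16 lower of 17 and proliferation markers 8 of 8 lower, and the part of cell makeup was not tested. All lung libraries carry KS names and the tumours several series, and against the 8 KS-named tumours 42 members were lower and 8 higher.

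In the healthy liver the direction of the members depended on the scaling of the libraries. Of 86 members 52 were lower and 3 higher than in FVB tumours, beside 81.8% and 10.4% of 12099 genes, with 75.4% and 8.93% of short genes. The median was -0.47 for members, -1.40 for all genes and -1.29 for short genes. Liver libraries hold large amounts of a few hepatocyte transcripts, whose 10 markers summed to 19346 to 41365 RPKM, and once libraries were rescaled 80 members were higher and 0 lower, with a median of 1.45. The share of all genes after rescaling is not given, so the rescaled counts do not set the members apart. Higher without rescaling were Uqcrq, Sdhb and Sdha. Uqcrq had 170.3, 234, 239 and 292 RPKM in 4 livers and 75.1 to 178 RPKM (median 96.9) in tumours (1.14 ± 0.19 SE, adjusted p = 1.38e-05). Sdhb had 62.2, 96.4, 100.3 and 109 RPKM against 34.9 to 53.9 RPKM (median 46.9), without overlap (0.99 ± 0.15 SE, adjusted p = 2.13e-06), and Sdha was higher by 0.42 ± 0.15 SE, adjusted p = 0.0101. Atp5g2 (-1.97 ± 0.17 SE, adjusted p = 8.16e-10), Cox7a1 (-1.78), Ndufc2 (-1.66, but 0.25 rescaled) and Ndufaf3 (-1.25, but 0.43 rescaled) were lower. Fatty acid oxidation genes were 11 higher and 0 lower of 13, TCA cycle genes 4 higher and 12 lower of 18 and glycolysis genes 0 higher and 16 lower of 17. Liver and tumour libraries have no name series in common, so that organ and series cannot be told apart.

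Liver metastases of M6 after intracardiac injection were compared with the liver around them, with pairs from 5 animals. Of 84 members 49 were higher in metastases and 2 lower, beside 81.9% and 11.3% of 10970 genes, with 76.5% and 10.7% of short genes, and 1 was higher and 79 lower once libraries were rescaled. The share of all genes after rescaling is not given, so the rescaled counts do not set the members apart. Without rescaling the members' median was 0.41, that of all genes 1.35 and that of short genes 1.30. Hepatocyte markers summed to 7154 to 35128 RPKM in metastases and 22437 to 39396 RPKM in adjacent liver, and 10 of 10 were lower in metastases. Fibroblast markers were higher in 7 of 7, proliferation and luminal markers in 8 of 8 each, and the part of these markers in the members' differences was not tested. Cox4i2 had 2.22 to 15.8 RPKM (median 9.32) in 7 animals with liver metastases and 0.0431, 0.0697, 0.0710, 0.0820 and 0.130 RPKM in adjacent liver, without overlap. Over the 5 pairs its difference by limma was 3.54 ± 0.14 SE, adjusted p = 1.37e-20. That SE is moderated with the variance of all genes and is not the spread of Cox4i2 over the 7 animals. Atp5g2 was higher by 1.75 ± 0.19 SE, adjusted p = 1.82e-08, Ndufaf2 by 1.41 (-0.039 rescaled) and Cox7a2l by 1.40 (-0.27 rescaled). Uqcrq (-0.63 ± 0.16 SE, adjusted p = 0.000471) and Sdha (-0.41 ± 0.15 SE, adjusted p = 0.0117) were lower, and both were among the 3 members that were higher in healthy liver than in FVB tumours.

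The remaining comparisons moved few members. In lung beside FVB tumours 10 of 88 members were lower and 1 higher than in healthy lung, beside 10% and 3.59% of 12054 genes, with 13% and 1.96% of short genes, and 5 lower and 6 higher once rescaled. Uqcr10 had 62.8, 65.4, 68.8, 71.9 and 89.0 RPKM in 5 adjacent and 113, 114, 118 and 133 RPKM in 4 healthy lungs, without overlap (-0.74 ± 0.11 SE, adjusted p = 0.00534). Leaving out single lungs gave 5 to 13 members called, with 5 without either of 2 healthy lungs (PF1 and PF2) and 7 without either of 2 adjacent lungs. Sdhb (-0.53), Ndufs4 (-0.48) and Ndufa6 (-0.45) were lower and Atp5g1 (0.50) higher. These 2 groups have different library name series, which cannot be told apart from the presence of a tumour. Lung nodules seeded through the tail vein were compared with those spread from orthotopic tumours. In 4T1, 3 of 86 members were lower, Ndufa5 (-0.65 ± 0.17 SE, adjusted p = 0.0397), Ndufa13 (-0.46) and Ndufs5 (-0.42), beside 1.88% of 11285 genes and 4.01% of short genes lower, and 0 were higher beside 3.87%, with 0 called once rescaled. In Mvt1, 8 of 87 were higher, led by Ndufa4 (0.60 ± 0.12 SE, adjusted p = 0.018), Ndufaf4 (0.60), Cox7b (0.50) and Ndufa5 (0.45), beside 3.98% of 11068 genes and 10.8% of short genes, and 0 were lower beside 0.262%, with 1 called once rescaled. Ndufa5 was called in both lines with opposite signs, and the difference between the lines was not tested. Both counts rested on single animals, since 4T1 had 7 members called without orthotopic animal 9 and 0 or 1 without each of 9 other animals, and Mvt1 had 1 without orthotopic animal 4 and 2 to 4 without each of 7 others.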

How the data were processed

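RNA was measured by sequencing in 335 libraries. Reads were aligned with TopHat to build mm9, per the submitters' processing notes, which also name DESeq2; versions are not given in the sources used here. The authors deposited RPKM values for 20188 genes in 1 table, with a gene's length and the library's reads already divided out. The 13 mitochondrial genes are not among them. Values were whole multiples of 1 read's worth (100% within 0.001 of a read over 2878 low genes), which gave the read totals. All 335 libraries matched a column, and 0 pairs of libraries were identical.

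Libraries of 1 tissue of an animal were averaged, and log2(RPKM + 1) was fitted with limma 3.58.1 in R 4.3.3 (trended, robust moderation) over the genes that reached 1 RPKM in a number of profiles no lower than the size of the smaller group. P-values were Benjamini-Hochberg adjusted over all genes tested, with a threshold of 0.05. Metastases and tumours were paired by the named animal, which entered as a block. The shared metastasis difference and the culture comparison took 1 value per model or line. Animals are the replicates of the transgenic models, and tumours of 1 line in several mice those of the allografts. Cultures carry isolation names, and those of 4T1, 4T07 and 67NR split into AS and isolation names, which stand apart for some genes (Cycs in 4T1 cells: 101.8 and 105.2 RPKM for AS, 38.99 and 44.4 RPKM for isolations). What these names stand for is not given in the sources used here, so that the spread of cultures may be technical. The lung share of a library was estimated from 13 lung epithelium markers in healthy lung. Scripts were tested on simulated data. Python 3.11.15 with pandas 2.3.3, numpy 2.4.6, scipy 1.17.1 and matplotlib 3.10.9 made the other values and plots.

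The members, gene lists and tests were chosen with earlier results of these data known. Named genes are the isoform families, the highest and lowest member of each complex, up to 4 called members per direction with the largest difference and a mean of 5 RPKM or more in the higher group, members with 1 sign in all 10 models, Sdha to Sdhd and Cycs; list genes are named by smallest adjusted p. Ndufb9 in D2A1, the Atp5h neighbours and Cox6a2 in cultures were singled out after their values were seen. Alternatives were a pseudocount of 0.1, no filter, rescaling to the median ratio over genes, no replicate block, subtraction of the lung share, a single name series, and leaving out each animal, model or line. Counts of members under an alternative are given without the share of all genes under it, so they do not set the members apart from all genes. Leaving out tumours with conflicting labels, and the lung comparison within 1 name series, were added after seeing the data.

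Where labels conflicted, the source entry was followed over the title for 1 Met1 and 2 MOLF tumours titled as lung metastases, and the title over the column's animal number. 1 FVB tumour carries a MOLF strain entry. The Mvt1 tail vein libraries have titles that begin with Met1 and were placed by their cell line entry, and the Mvt1 route comparison rests on them. FVB animals 974CH (metastasis) and 947CH (tumour) were left unpaired, and labels conflict on the injection route of a 6DT1 liver sample. In the pairing check, which correlated the deviations of a tumour and a metastasis of 1 animal from their group means, the correlation was over 0.1 in 4 of 6 pairs for 4T1, 6DT1, Met1 and M6, 2 of 6 for Mvt1 and BL10, 9 of 12 for FVB, 2 of 5 for BL6, 6 of 7 for CAST, 7 of 8 for MOLF and 5 of 5 for the M6 liver.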

Additional observations from a re-analysis of the deposited data

Results flagged for a closer look

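In groups of 4 to 10 animals, 87 sets of values (48 of named members and 39 of the core gene median) were examined for 1 animal far from the others. This gave 13 sets, 11 of members and 2 of the core median. Chance alone gives about 1 in 20 if values are normally distributed, and RPKM values were not put on the log scale. The 48 member sets were those given by animal in the text, some of them chosen after their values were seen. Their count can therefore not be set against chance. The 39 core median sets were not chosen by their values.

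Isoform genes made up 4 of them. Cox8b was 262.5 RPKM in 1 Myc tumour against 0 to 0.783 RPKM in the other 5, and 303.7 RPKM in 1 HRM1 tumour against 0.269 to 19.4 RPKM in the other 3. Cox6a2 was 30.7 RPKM in 1 lung beside tumour against 4.67 to 6.93 RPKM. Cox7b2 was 124.4 RPKM in 1 67NR tumour against 70.5 to 87.5 RPKM in the others.

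Among subunit genes, Atp5h was 1978 RPKM in 1 resected Met1 tumour against 822.6 to 856.9 RPKM in the other 3, and Ndufb9 was 376 RPKM in 1 D2A1 tumour against 269 to 285 RPKM. Uqcr10 was 538.7 RPKM in 1 MOLF tumour against 190.00 to 310.7 RPKM in the other 7, and Ndufc2 was 271.5 RPKM in 1 BL6 tumour against 66.9 to 110.5 RPKM. Ndufs3 was 34.8 RPKM in 1 67NR tumour against 21.7 to 24.8 RPKM. In Mvt1 tumours, Cox6b1 was 122.3 RPKM in 1 animal against 179.9 to 207.3 RPKM, and Sdhc was 79.2 RPKM in 1 animal against 43.8 to 53.2 RPKM.

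The core gene median stood at 0.70 in 1 BL6 tumour against 0.06 to 0.17 in the other 5, and at 0.62 in 1 CAST tumour against 0.32 to 0.44 in the other 6.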

How the results depend on the processing

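The counts of members called stayed within 1.5 times of the reported count in 100 of 119 cases with another setting and all animals, and moved further in 19. Rescaling libraries to the median ratio gave 6 called in 4T1, 0 in the 4T1 and 1 in the Mvt1 route comparison and 80 in M6 liver metastases. Subtracting the lung share gave 3 in 4T1, 6 in 6DT1 and 0 in MOLF. Without a filter on low values there were 2 in FVB metastases, 1 each in CAST and MOLF metastases, 1 in the 4T1 route and 5 in the Mvt1 route comparison. With a pseudocount of 0.1 there was 1 each in BL6 and CAST metastases. Within KS names 20 were called on BL6, 32 on BL10, 13 on CAST and 29 on MOLF, with fewer tumours, and the cause of these shifts was not tested. The KS-named MOLF tumours include those titled as lung metastases. Of the named genes, 402 values under another setting kept direction and call, 48 lost the call and 5 reversed: Cox4i2 across the 10 models was -0.16 with the lung share subtracted, Ndufc2 0.25 and Ndufaf3 0.43 in healthy liver and Ndufaf2 -0.039 and Cox7a2l -0.27 in M6 liver metastases after rescaling. Between 2 groups of mice that share no animals, no paired analysis was made.

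Without the replicate block, that is without pairing by animal, 15 members were called in 4T1, 10 in 6DT1, 24 in Mvt1, 1 in BL6, 2 in MOLF, 49 in M6 liver metastases and 0 in Met1, M6, FVB, BL10 and CAST metastases.

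Leaving out 1 animal, model or line at a time, 264 counts stayed within 1.5 times and 53 moved further. The members called ranged from 1 to 9 in 4T1, 4 to 32 in 6DT1, 17 to 33 in Mvt1, 0 to 1 in M6, FVB, BL6 and CAST (1 without a single animal in each, or without either of 2 in CAST), 0 to 4 in BL10 and 1 to 2 in MOLF. They ranged from 14 to 25 across the 10 models, 8 to 18 in culture, 2 to 9 on BL6, 9 to 27 on BL10, 22 to 38 on CAST, 49 to 62 on MOLF, 68 to 71 in Myc tumours, 14 to 23 in Met1 tumours, 52 to 58 in 4T1 and 47 to 52 in 4T07 against 67NR. In lung they ranged from 49 to 64, in liver from 38 to 60, in lung beside tumour from 5 to 13, in the 4T1 route comparison from 0 to 7, in the Mvt1 one from 1 to 10 and in M6 liver metastases from 44 to 55. Of the named genes, 1343 values kept their call and 153 lost it, and 0 reversed. Depth limits the isoform genes most, since 1 read of a gene of 1 kilobase is worth 0.0368 RPKM at the median read total.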

Other observations

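Neighbours of Ndufb9 on chromosome 15 were read in D2A1 tumours after the level of Ndufb9 had been seen. Of the 20 nearest expressed genes by RefSeq order, 9 had D2A1 among the 3 highest of 23 tumour groups. Sqle had a mean of 35.7 RPKM in D2A1 and a median of 16.9 RPKM over the tumour groups, and Tatdn1 32.9 and 13.9 RPKM.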
